A study of Mus musculus with 30 samples.

Results

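The phagocyte NADPH oxidase was represented by 5 genes, Cybb, Cyba, Ncf1, Ncf4 and Rac2. They were chosen by symbol and not by a limit on their measured values, although earlier results of these data were known. All 5 were present in both gene count tables, among 13353 genes measured in bone marrow (BM) and 17059 genes measured in macrophages of visceral adipose tissue (ATM). Each tissue had 5 groups of 3 RNA-seq libraries, and the question for each gene was how its transcript differed between lean and obese recipients of the same mutant donor cells and between obese recipients given different drugs.

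All recipients were on a C57BL/6 background, were irradiated with 700 and then 400 cGy, and received 500K CD45.2+ BM cells of Shp2E76K/+;LysM-Cre+ donors mixed with 500K CD45.1+ Boy/J competitor cells. The WT group held lean wild-type recipients with no drug named in the labels. The other 4 groups were leptin-deficient LepOb/Ob (Ob/Ob) recipients that, from 8 weeks after transplant, were given 1 of 4 treatments for 30 days. These were Vehicle, beinaglutide as GLP-1R agonist (subcutaneous, 3 mg/kg), anti-IL-17A antibody (intraperitoneal, 3 times a week, 200 ug each), and both agents together (Combo). LysM-Cre acts in myeloid cells, the competitor cells carried no mutant allele, and the tissues therefore mixed cells of both donors with those the host still had. The labels give 12 to 14 weeks as the age of the mice, both sexes, and 1 batch for all libraries. They do not tie a library to a single mouse or donor, so p-values measure the spread between these libraries only.

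The enzyme carries electrons from NADPH in the cytosol across a membrane to oxygen, which makes superoxide. Cybb encodes gp91phox, the catalytic chain, and Cyba encodes p22phox, the partner that stabilizes it. Together they form the membrane-bound flavocytochrome. Ncf1 encodes p47phox, the organizer that is phosphorylated and brings the cytosolic part to the membrane, and Ncf4 encodes p40phox, which binds a phosphoinositide of the phagosome. Rac2 is a small GTPase of blood cells that switches the assembled enzyme on. Neutrophils, monocytes and macrophages use the oxidase to kill microbes, and inherited loss of it causes chronic granulomatous disease.

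In the GRCm38 build (GENCODE M21 annotation), Cybb lies on chromosome X, positions 9435252 to 9487771, minus strand. Cyba lies on chromosome 8, positions 122424776 to 122432930, minus strand, and Ncf1 on chromosome 5, positions 134220053 to 134229625, minus strand. Ncf4 (positions 78244801 to 78262580, plus strand) and Rac2 (positions 78559167 to 78572783, minus strand) both lie on chromosome 15. The counting ignored strand and let a read count for every gene it overlapped. Of the exon length of Ncf1, 11.1% was shared with Gtf2ird2 on the opposite strand, so reads from those bases cannot be told apart, whereas the other 4 genes shared no exon bases with another gene.

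Promoter sequences are shown for Cybb, Cyba and Ncf1 (RefSeq, GRCm38.p6, from 250 bases before to 50 bases after the start site). Ncf4 and Rac2 had no entry in the promoter set used. Each is printed 5' to 3' on the strand of its gene. Capitals mark the letters of an interferon response element (GAAA, any 2 bases, GAAA) and GAGGAA, an ETS-factor core that PU.1 binds, both searched on both strands. Other motifs were searched as well, and their matches are not marked.
Cybb, chrX:9469275-9469574, minus strand: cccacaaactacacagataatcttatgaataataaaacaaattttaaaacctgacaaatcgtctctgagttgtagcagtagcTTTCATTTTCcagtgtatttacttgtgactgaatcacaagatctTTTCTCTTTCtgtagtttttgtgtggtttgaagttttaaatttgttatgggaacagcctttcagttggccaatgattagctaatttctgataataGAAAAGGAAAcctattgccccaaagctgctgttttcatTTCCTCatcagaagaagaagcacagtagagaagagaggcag
Cyba, chr8:122432891-122433190, minus strand: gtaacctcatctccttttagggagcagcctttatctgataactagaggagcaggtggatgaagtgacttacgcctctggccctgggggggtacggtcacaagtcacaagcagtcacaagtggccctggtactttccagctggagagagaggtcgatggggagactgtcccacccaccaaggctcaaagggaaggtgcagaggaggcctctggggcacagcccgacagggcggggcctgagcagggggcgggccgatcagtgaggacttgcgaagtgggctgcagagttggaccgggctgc
Ncf1, chr5:134229576-134229875, minus strand: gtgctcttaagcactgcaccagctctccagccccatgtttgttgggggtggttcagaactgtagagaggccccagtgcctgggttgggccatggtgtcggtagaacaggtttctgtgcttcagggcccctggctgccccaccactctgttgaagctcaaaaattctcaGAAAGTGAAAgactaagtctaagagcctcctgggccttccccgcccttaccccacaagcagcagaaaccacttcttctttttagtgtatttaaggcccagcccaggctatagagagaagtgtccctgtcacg
The Cybb window held 3 matches to the interferon response element, starting 168, 124 and 29 bases before the start site, and 1 match to GAGGAA starting 9 bases after it. The Ncf1 window held 1 match to that element, 82 bases before the start site, and the Cyba window held neither motif. Of all 32851 promoter windows of the same length, 3.44% held the element and 28.3% held GAGGAA. The Cybb window lies inside the M21 gene, which extends further upstream than the RefSeq start site. These are matches of letters and say nothing of whether a factor was bound.

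Some libraries stood apart or went against their labels. The ATM Vehicle libraries had high neutrophil markers and low transcripts of Adgre1 and Csf1r, although other macrophage markers were higher there than in WT, Xist was abundant in Vehicle and Combo only, and WT replicate 1 differed from the other BM WT libraries. The values follow the member results.

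The libraries held between 31086184 and 39925495 counts in BM and between 24876074 and 45300263 counts in ATM. Replicates were much closer in BM, where the common biological coefficient of variation was 3.51%, than in ATM, where it was 32.5%. As a result, most genes passed a false discovery rate (FDR) of 0.05 in BM, and each count of members is set beside that share. "Called" below means an FDR below 0.05 with a log2 fold change beyond 1 in either direction, which is the limit the study used. Expression is given as TMM-scaled CPM, the reads of a gene relative to a library total that TMM has corrected, for comparisons between libraries. Comparisons between genes use TPM, which first divides by exon length. With TMM scaling, the median log2 fold change of all genes lay between -0.02 and 0.02 in the 5 main BM comparisons, and in ATM it was -0.21 for Vehicle against WT, 0.19 for the agonist, 0.17 for the antibody and 0 for Combo against Vehicle, and -0.12 for Combo against WT. Scaling to total counts, an alternative chosen after the data were seen, moved these medians to between -0.17 and 0.24 in BM and between -0.65 and 0.52 in ATM, so a member whose direction turned with it is named where it occurs.

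BM expressed the oxidase at high levels. By mean TPM over all 15 BM libraries, Cyba ranked 66th, Rac2 110th, Ncf1 143rd, Cybb 175th and Ncf4 226th of 12852 genes with a known length. In ATM, Cyba ranked 68th of 16402 genes, Rac2 378th, Cybb 617th, Ncf4 1613th and Ncf1 1728th. The 5 members together took 0.363% to 0.643% of all counts in BM libraries and 0.0849% to 0.26% in ATM libraries. In each tissue the lowest and highest libraries of a member differed by 1.94-fold (Rac2) to 2.75-fold (Ncf1) in BM and by 3.69-fold (Rac2) to 5.09-fold (Ncf4) in ATM.

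**Figure D1:**
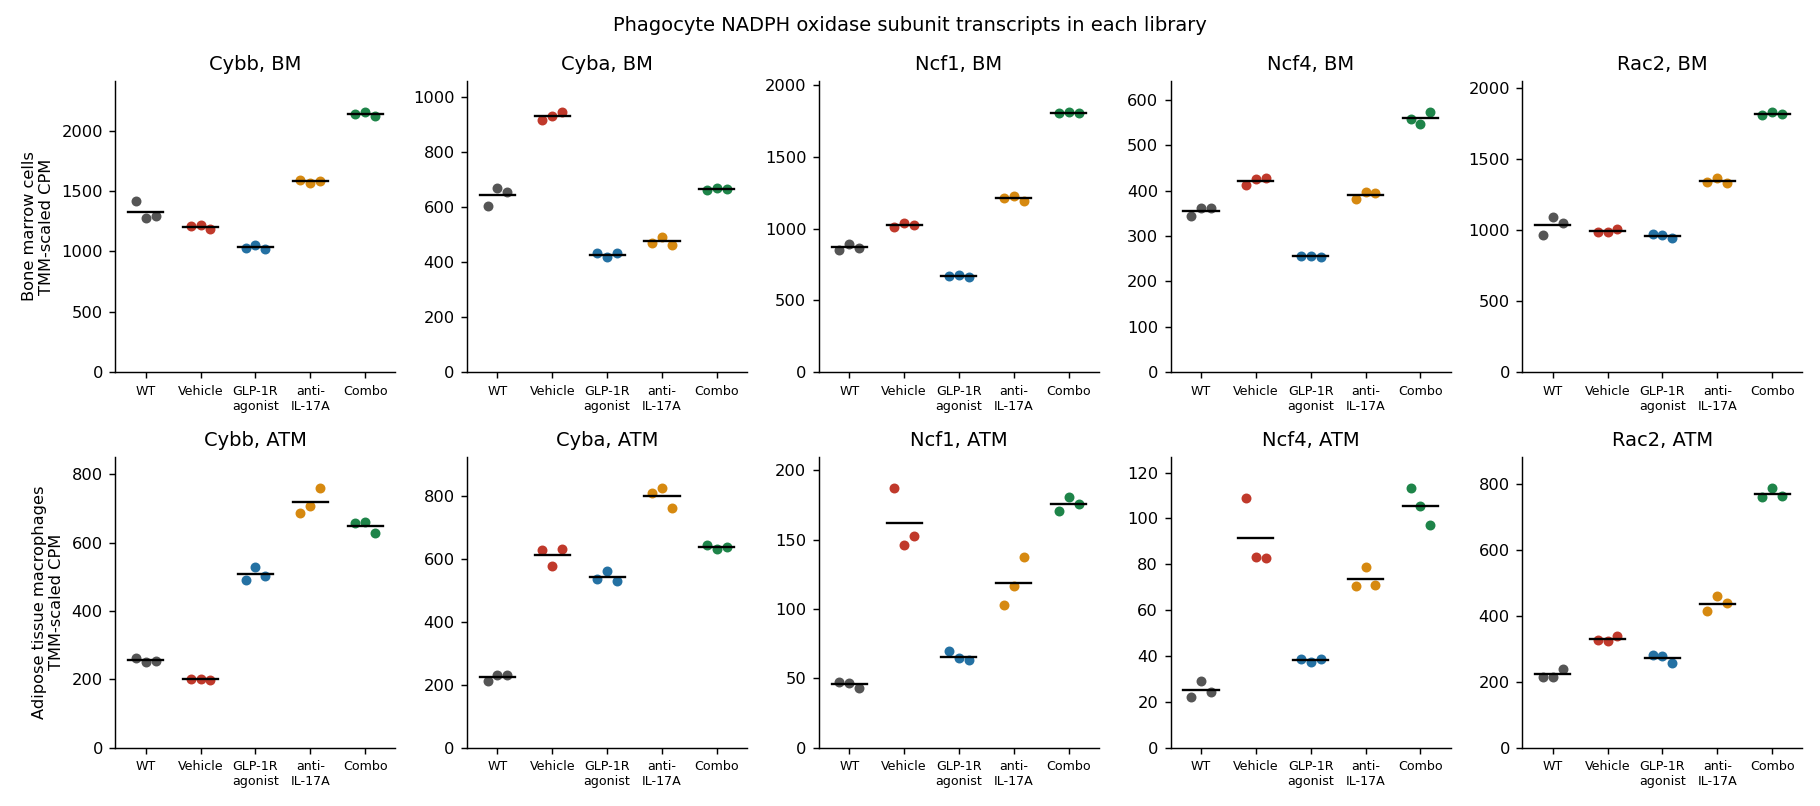
Each point is 1 library and each line the mean of 3, as TMM-scaled CPM on axes from 0, with a panel for each subunit in BM (top) and ATM (bottom). In BM the Combo libraries are highest for Cybb, Ncf1, Ncf4 and Rac2 while Vehicle is highest for Cyba, and in ATM Cybb is lowest in Vehicle (198 to 202 CPM) while Ncf1 and Ncf4 are lowest in WT.

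The catalytic chain and its partner changed in opposite directions between lean and obese recipients in BM. Cybb was at 1416, 1275 and 1297 CPM in the 3 WT libraries and at 1210, 1215 and 1189 CPM in the Vehicle libraries. Cyba was at 606, 670 and 656 CPM in WT and at 916, 931 and 945 CPM in Vehicle. Every Vehicle library was below every WT library for Cybb and above every WT library for Cyba. In Vehicle, Cybb was lower (log2 fold change -0.14 ± 0.026 (SE), FDR = 5.73e-06, edgeR quasi-likelihood test) and Cyba was higher (0.53 ± 0.028, FDR = 8.52e-18).

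Among the cytosolic subunits in BM, Ncf1 rose from 852, 891 and 864 CPM in WT to 1011, 1039 and 1026 CPM in Vehicle (0.24 ± 0.022, FDR = 8.69e-13). Ncf4 rose from 343, 363 and 362 CPM to 413, 426 and 428 CPM (0.25 ± 0.025, FDR = 2.74e-11). Ncf1 and Ncf4 therefore moved with Cyba and not with Cybb. Rac2 was at 963, 1093 and 1053 CPM in WT and at 985, 985 and 1008 CPM in Vehicle, overlapping ranges that did not pass the test (-0.06 ± 0.029, FDR = 0.0505). Without WT replicate 1, the BM library that stood furthest from its group, Rac2 was lower in Vehicle (-0.11, FDR = 5.32e-08), as it was with total-count scaling (-0.19, FDR = 3.32e-06). In all, 4 of 5 members passed the FDR and none was called in this comparison, where 76.6% of all genes passed and 19.5% were called.

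The same contrast was larger in ATM. Cyba was at 214, 232 and 231 CPM in WT and at 628, 577 and 631 CPM in Vehicle (1.44 ± 0.047, FDR = 4.31e-13). Ncf1 was at 47.1, 46.8 and 42.9 CPM in WT and at 187, 146 and 153 CPM in Vehicle (1.83 ± 0.11, FDR = 7.48e-10). Ncf4 was at 22.3, 29.3 and 24.3 CPM in WT and at 109, 83.1 and 82.8 CPM in Vehicle (1.86 ± 0.12, FDR = 2.91e-09). These 3 subunits were called higher, with no overlap between the groups. Rac2, the GTPase, rose less, from 214, 215 and 240 CPM to 327, 324 and 339 CPM (0.57 ± 0.053, FDR = 2.07e-07). Cybb went the other way, from 262, 252 and 254 CPM to 202, 200 and 198 CPM (-0.36 ± 0.043, FDR = 3.67e-06). All 5 members passed the FDR and 3 were called, against 56.9% and 35.4% of all genes.

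With the GLP-1R agonist alone, 4 members fell in BM. Cyba showed the largest change, from 916, 931 and 945 CPM in Vehicle to 434, 417 and 431 CPM (-1.12 ± 0.029, FDR = 6.59e-27), and was the only member called. Ncf1 fell to 670, 675 and 660 CPM (-0.62 ± 0.022, FDR = 4.66e-26) and Ncf4 to 256, 256 and 253 CPM (-0.73 ± 0.026, FDR = 4.35e-26). All 3 of these agonist groups lay below the Vehicle libraries and also below the WT libraries. Cybb fell to 1029, 1052 and 1024 CPM (-0.22 ± 0.026, FDR = 1.32e-09), and Rac2, at 970, 968 and 946 CPM, did not pass (-0.05 ± 0.029, FDR = 0.149). Scaled to total counts in place of TMM, Cyba no longer reached the 2-fold limit, Cybb was no longer lower (0.02) and Rac2 was higher (0.19), so only the falls of Cyba, Ncf1 and Ncf4 held under both scalings. The counts of 4 members past the FDR and 1 called stand beside 72.8% and 16.7% of all genes.

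In ATM the agonist separated the subunits differently. Cybb rose to 490, 528 and 503 CPM, above all Vehicle and WT libraries (1.34 ± 0.044 against Vehicle, FDR = 4.2e-13). Ncf1 and Ncf4 fell, Ncf1 to 69.4, 64.5 and 63.4 CPM (-1.30 ± 0.11, FDR = 4.46e-08) and Ncf4 to 38.9, 37.6 and 38.6 CPM (-1.26 ± 0.12, FDR = 2.74e-07). Rac2 was at 281, 278 and 257 CPM (-0.28 ± 0.053, FDR = 0.000348) and Cyba at 535, 562 and 531 CPM (-0.17 ± 0.046, FDR = 0.005). With total-count scaling the direction of Cyba turned (0.04) and Rac2 did not pass (-0.06, FDR = 0.307), so 3 members passed under that scaling. With TMM scaling all 5 members passed the FDR and 3 were called, against 53.8% and 31.8% of all genes.

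With the anti-IL-17A antibody alone, Cybb was higher than in Vehicle in both tissues. In BM, Cybb was at 1594, 1569 and 1581 CPM (0.39 ± 0.026 against Vehicle, FDR = 1.63e-16) and its partner Cyba at 469, 493 and 464 CPM (-0.97 ± 0.029, FDR = 4.87e-25). Ncf1 was at 1214, 1225 and 1196 CPM (0.24 ± 0.022, FDR = 6.77e-13) and Rac2 at 1338, 1368 and 1335 CPM (0.44 ± 0.029, FDR = 1.49e-14). Ncf4 was at 381, 398 and 396 CPM, below Vehicle with TMM scaling (-0.11 ± 0.025, FDR = 0.000248) and above it with total-count scaling (0.06). All 5 members passed the FDR and none was called, against 73% and 16.1% of all genes.

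Antibody-treated ATM libraries held the highest Cybb and Cyba levels of any ATM group. Cybb was at 686, 707 and 760 CPM (1.85 ± 0.044 against Vehicle, FDR = 8.24e-15) and Cyba at 812, 826 and 762 CPM (0.39 ± 0.046, FDR = 2.91e-06). Rac2 was at 414, 460 and 439 CPM (0.41 ± 0.053, FDR = 8.05e-06). Ncf1 was lower than in Vehicle at 103, 116 and 138 CPM (-0.45 ± 0.10, FDR = 0.00179), but this did not pass with total-count scaling (-0.10, FDR = 0.424). Ncf4 was at 70.7, 78.6 and 71 CPM (-0.32 ± 0.12, FDR = 0.0292). The Ncf4 change rested on single libraries, since it did not pass without Vehicle replicate 1 (-0.18, FDR = 0.171), without antibody replicate 1 (-0.29, FDR = 0.0839) or without antibody replicate 3 (-0.30, FDR = 0.0805), and its sign turned with total-count scaling (0.03). All 5 members passed the FDR and 1 was called, against 58.1% and 35.5% of all genes.

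Combo gave the highest BM levels of 4 subunits. Cybb reached 2142, 2154 and 2122 CPM (0.83 ± 0.026 against Vehicle, FDR = 6.17e-27), Ncf1 1804, 1812 and 1808 CPM (0.82 ± 0.022, FDR = 1.76e-30) and Rac2 1810, 1831 and 1821 CPM (0.88 ± 0.029, FDR = 3.74e-22). Ncf4 reached 559, 547 and 573 CPM (0.41 ± 0.025, FDR = 7.55e-18). Cyba again went the other way, to 662, 670 and 665 CPM (-0.48 ± 0.028, FDR = 1.16e-16). All 5 passed the FDR and none was called, against 73.8% and 17.7% of all genes.

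Set against WT in BM, Combo was higher for Cybb (0.69 ± 0.026, FDR = 3.31e-24), Ncf1 (1.06 ± 0.022, FDR = 6.46e-34), Ncf4 (0.65 ± 0.025, FDR = 1.24e-24) and Rac2 (0.81 ± 0.029, FDR = 2.56e-21). Only Cyba overlapped the WT libraries (0.05 ± 0.028, FDR = 0.127). That value passed without WT replicate 2 (0.09, FDR = 0.00646), and it was negative with total-count scaling (-0.10). Ncf1 was the 1 member called, and it fell short of the 2-fold limit with total-count scaling. With 4 members past the FDR and 1 called, the shares over all genes were 73.3% and 14.3%.

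In ATM, Combo differed from Vehicle in the catalytic chain and the GTPase. Cybb was at 657, 662 and 630 CPM (1.70 ± 0.044, FDR = 3.13e-14) and Rac2 at 761, 789 and 765 CPM (1.23 ± 0.053, FDR = 2.09e-11), the highest Rac2 level of any ATM group. Cyba at 644, 634 and 637 CPM (0.06 ± 0.046, FDR = 0.298), Ncf1 at 170, 181 and 176 CPM (0.12 ± 0.10, FDR = 0.382) and Ncf4 at 113, 105 and 97.2 CPM (0.20 ± 0.12, FDR = 0.176) did not pass the test. Vehicle replicate 1 was the highest Vehicle library for both Ncf1 and Ncf4, and without it the Ncf4 difference passed (0.34, FDR = 0.0187). With total-count scaling all 5 members passed, Cyba at 0.48, Ncf1 at 0.53 and Ncf4 at 0.62. The counts were 2 members past the FDR and 2 called, against 48.7% and 26.4% of all genes.

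Against WT in ATM, all 5 members were called higher in Combo, where 41.1% of all genes passed the FDR and 21.6% were called. The log2 fold changes were 1.35 ± 0.043 for Cybb (FDR = 9.96e-13), 1.501 ± 0.047 for Cyba (FDR = 7.92e-13) and 1.79 ± 0.054 for Rac2 (FDR = 5.73e-13). They were 1.95 ± 0.11 for Ncf1 (FDR = 7.81e-10) and 2.06 ± 0.12 for Ncf4 (FDR = 1.82e-09).

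**Figure D2:**
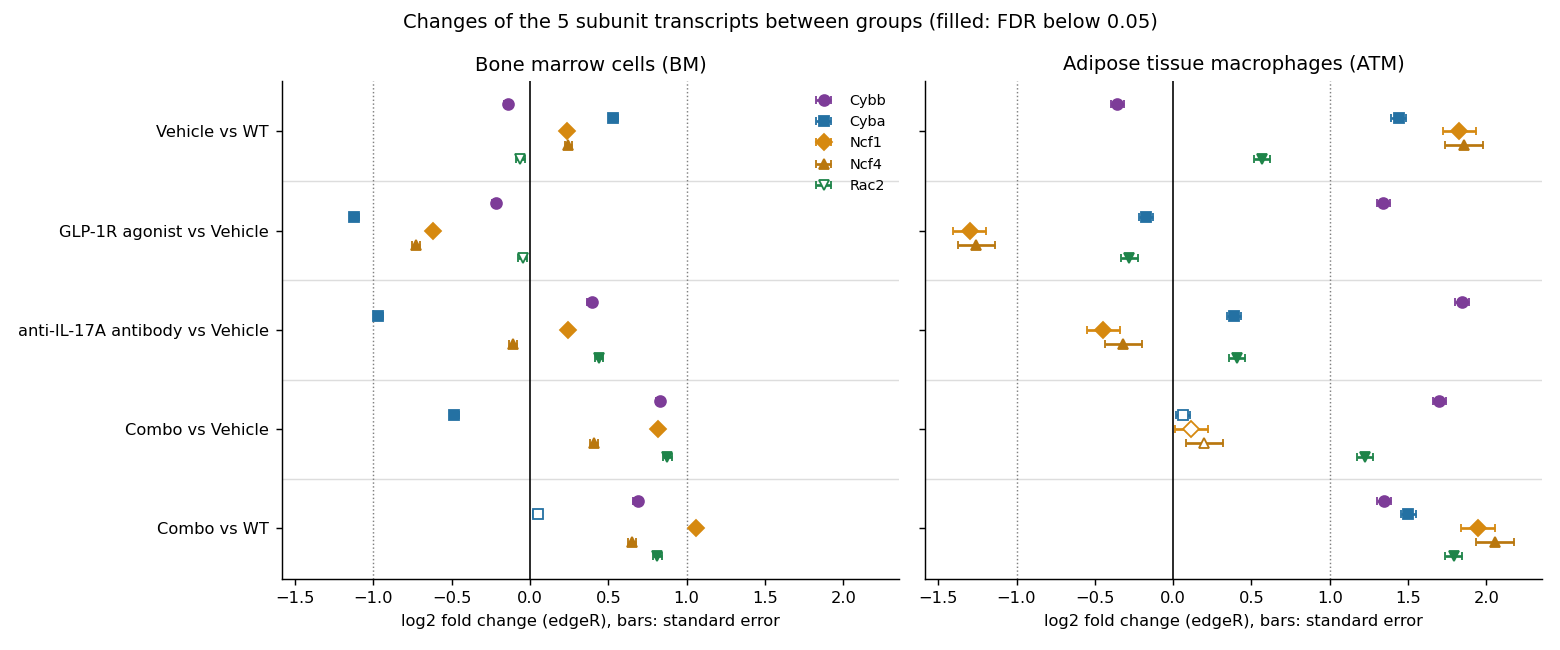
Log2 fold changes with standard errors for 5 comparisons in BM (left) and ATM (right), filled where the FDR is below 0.05, with dotted lines at the 2-fold limits. Cybb and Cyba lie on opposite sides of 0 for Vehicle against WT in both tissues, and all 5 subunits lie beyond the 2-fold limit for Combo against WT in ATM alone.

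Combo was also compared with each agent alone. In BM all 5 subunits were higher in Combo than with the agonist, from 0.64 ± 0.029 for Cyba to 1.43 ± 0.022 for Ncf1 (71.4% of all genes passed). They were also all higher than with the antibody, from 0.44 ± 0.028 for Rac2 to 0.58 ± 0.022 for Ncf1 (52.5% of all genes passed). In ATM all 5 were higher than with the agonist, from 0.23 ± 0.046 for Cyba to 1.51 ± 0.054 for Rac2 (39.8%). Against the antibody in ATM (28.6%), the cytosolic subunits Ncf1 (0.56 ± 0.10), Ncf4 (0.52 ± 0.12) and Rac2 (0.82 ± 0.053) were higher in Combo. The membrane pair was lower, Cyba by -0.33 ± 0.046 and Cybb by -0.14 ± 0.042 (FDR = 0.0178). The Cybb difference did not pass without antibody replicate 3 (-0.10, FDR = 0.0991) or Combo replicate 3 (-0.12, FDR = 0.0793), or with total-count scaling (-0.07, FDR = 0.227).

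Whether Combo differed from the single-agent changes added together was tested as Combo minus agonist minus antibody plus Vehicle on the log2 scale. In BM it was positive for all 5 subunits, 0.65 ± 0.036 for Cybb, 1.61 ± 0.04 for Cyba, 1.19 ± 0.031 for Ncf1, 1.24 ± 0.036 for Ncf4 and 0.48 ± 0.04 for Rac2, and all passed the FDR, as did 68.6% of all genes. The Rac2 value did not pass with total-count scaling (0.05). In ATM it was positive for Ncf1 (1.86 ± 0.15), Ncf4 (1.77 ± 0.17) and Rac2 (1.10 ± 0.075) and negative for Cybb (-1.49 ± 0.061), and 50.5% of all genes passed. Cyba (-0.15 ± 0.065, FDR = 0.0594) did not pass in ATM, although it did without antibody replicate 3 (-0.19, FDR = 0.0281), in the fit that kept only genes with at least 10 counts in every library (-0.17, FDR = 0.0404) and with total-count scaling (-0.30). All of these comparisons draw on the same Vehicle or Combo libraries.

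The order of the groups differed between the subunits. In BM, Cybb descended from Combo through antibody, WT and Vehicle to the agonist, with no overlap between neighbours, and Ncf1 from Combo through antibody, Vehicle and WT to the agonist, again with none. The share of all genes with groups so separated was not computed. Ncf4 descended from Combo through Vehicle, antibody and WT to the agonist. Cyba was highest in Vehicle, then Combo and WT, which overlapped, then antibody and agonist. For Rac2, Combo and antibody stood apart from the other groups, and WT overlapped both Vehicle and agonist. In ATM, Cybb and Cyba were highest with the antibody and then with Combo, while Ncf1, Ncf4 and Rac2 were highest in Combo, where the Ncf1 and Ncf4 libraries overlapped those of Vehicle. WT was the lowest ATM group for all members but Cybb, for which Vehicle was lowest.

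Ratios of 2 genes within a library do not depend on how libraries are scaled. The Cybb to Cyba ratio of TPM in BM was 0.371 ± 0.042 (SD, n = 3) in WT, 0.232 ± 0.0059 in Vehicle, 0.433 ± 0.016 with the agonist, 0.596 ± 0.023 with the antibody and 0.575 ± 0.004 in Combo. In ATM it was 0.203 ± 0.014, 0.0586 ± 0.003, 0.167 ± 0.0029, 0.161 ± 0.015 and 0.182 ± 0.005 in the same order. Vehicle thus had the least Cybb per Cyba transcript in both tissues, 1.6-fold below WT in BM and 3.47-fold below WT in ATM. The 3 Vehicle libraries lay below all other libraries of their tissue. Antibody and Combo overlapped in BM.

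The Rac2 to Rac1 ratio sets the blood-cell GTPase against its widely expressed relative, which can serve the same enzyme. It was 5.63 ± 0.36 in WT, 5.04 ± 0.10 in Vehicle, 5.95 ± 0.21 with the agonist, 6.4 ± 0.15 with the antibody and 7.24 ± 0.025 in Combo in BM. In ATM, Rac1 was the more abundant in WT (ratio 0.617 ± 0.054), in Vehicle (0.364 ± 0.006), with the agonist (0.642 ± 0.036) and with the antibody (0.973 ± 0.048, where 1 of 3 libraries was above 1). Combo was the ATM group in which Rac2 exceeded Rac1 in all 3 libraries (1.75 ± 0.066). Rac1 shared 51.4% of its exon length with Daglb on the opposite strand, so its level is uncertain.

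The Ncf1 to Ncf4 ratio in ATM had group means between 0.895 and 1.01, with overlapping libraries in all 5 comparisons. In BM the ratio rose from 1.35 ± 0.029 in WT and 1.34 ± 0.016 in Vehicle to 1.71 ± 0.044 with the antibody and 1.78 ± 0.045 in Combo. Each ratio was compared by a two-sided exact permutation test of 3 against 3 libraries, in which 0.1 is the smallest p possible. Over 3 ratios, 2 tissues and 5 comparisons, the groups were fully apart, with the smallest exact p, in every comparison of Cybb to Cyba and of Rac2 to Rac1, and in 4 of 5 BM comparisons of Ncf1 to Ncf4. No comparison of this size could pass 0.05. The share of other gene pairs that would be fully apart was not computed. In these comparisons 72.8% to 76.6% of all genes in BM and 41.1% to 58.1% in ATM passed the FDR, so separation is not particular to these ratios.

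**Figure D3:**
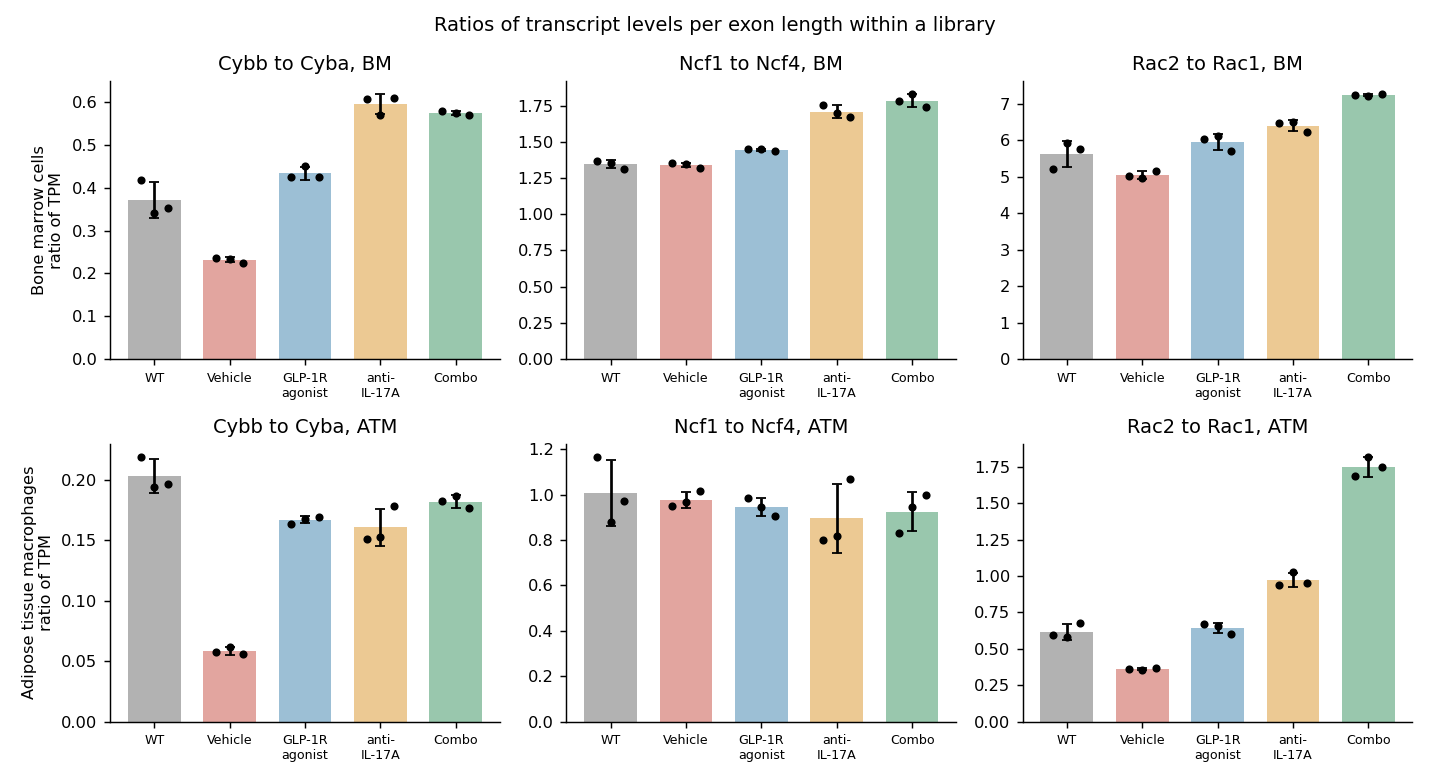
Bars give the mean ratio of TPM of 2 genes within a library, error bars the SD, and points the 3 libraries, for BM (top) and ATM (bottom) on axes from 0. Vehicle has the lowest Cybb to Cyba ratio in both tissues (0.232 in BM and 0.0586 in ATM), and the Rac2 to Rac1 ratio is above 1 in every Combo library of ATM.

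Pathway genes that act on the oxidase were taken as a list of 16 assembly and activity regulators, of which 15 were in each table. In BM, 4 of 15 rose and 10 fell in Vehicle against WT (median -0.22, against -0.02 over all genes), 4 rose and 8 fell with the agonist against Vehicle, 12 rose and 2 fell with the antibody (median 0.39), and 13 rose and 1 fell in Combo (median 0.59). Over all BM genes the medians were near 0 and 72.8% to 76.6% passed in these comparisons. In ATM, 5 rose and 5 fell in Vehicle, 8 rose and 3 fell with the agonist, 10 rose and 3 fell with the antibody, and 10 rose and 3 fell in Combo, where 48.7% to 58.1% of all genes passed. The ATM medians of the list were 0.10, 0.21, 0.53 and 0.34 in the same order, against -0.21, 0.19, 0.17 and 0 over all genes. With the agonist the list median was thus near that of all genes. These counts were made with TMM scaling, as were those of the lists that follow, to be read against the same shares of all genes. Prdx6, a peroxiredoxin that binds the oxidase, was the 1 regulator called in BM in Vehicle against WT (1.06 ± 0.024, FDR = 8.26e-33), and it was lower with the agonist (-1.04 ± 0.024, FDR = 1.65e-32) and with the antibody (-1.02 ± 0.024, FDR = 3.32e-32). Pak1, a kinase that Rac activates, was the 1 regulator called in BM in Combo against Vehicle (1.25 ± 0.051, FDR = 6.89e-24).

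In ATM, 2 regulators linked to activation of the oxidase were lowest in Vehicle. Prkcb, a protein kinase C that phosphorylates p47phox, averaged 54.3 CPM in WT, 21.1 CPM in Vehicle, 72.6 CPM with the agonist, 113 CPM with the antibody and 89.3 CPM in Combo. Dock2, a guanine nucleotide exchange factor for Rac, averaged 118, 51.9, 141, 221 and 263 CPM in the same order. Both were called lower in Vehicle than in WT (Prkcb -1.36 ± 0.098, FDR = 8.64e-09, and Dock2 -1.19 ± 0.15, FDR = 4.27e-06) and higher in each treated group than in Vehicle. Rac1 had the opposite course, averaging 525 CPM in WT, 1313 CPM in Vehicle and 614 to 652 CPM in the treated groups. Arhgdib, a blood-cell inhibitor of GDP dissociation that holds Rac in the cytosol, and Vav1, another exchange factor for Rac, were called higher in Combo than in Vehicle (Arhgdib 1.62 ± 0.042, FDR = 3.26e-14, and Vav1 1.18 ± 0.11, FDR = 1.85e-07) and than in WT (Arhgdib 1.39 ± 0.042 and Vav1 1.36 ± 0.11).

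Prdx6 had a different course in ATM, averaging 926 CPM in WT, 750 CPM in Vehicle, 290 CPM with the antibody and 341 CPM in Combo. It was called lower with the antibody than in Vehicle (-1.37 ± 0.031, FDR = 3.81e-15) and in Combo than in WT (-1.44 ± 0.031, FDR = 9.1e-15). Pak1 was called higher with the antibody than in Vehicle (1.14 ± 0.15, FDR = 8.93e-06) and lower in Combo than with the antibody (-1.20 ± 0.15, FDR = 1.51e-05). Arhgdib was the 1 regulator called in Combo against the agonist in ATM (1.41 ± 0.042, FDR = 4.84e-13), while in BM that comparison called Pak1 (1.25 ± 0.05, FDR = 4.97e-24) and Vav1 (1.07 ± 0.027, FDR = 8.62e-31). For the difference between Combo and the added single-agent changes, Prdx6 was called in BM (1.26 ± 0.035), and in ATM Rac1 was called with a positive value (1.07 ± 0.043) and Prkcb (-2.13 ± 0.14), Pak1 (-2.002 ± 0.21) and Dock2 (-1.20 ± 0.20) with negative values.

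Of 7 other NADPH oxidase family members in the ATM table, 5 passed as higher in Vehicle than in WT and none as lower, at summed levels of 71.3 to 81.5 CPM in Vehicle and 10.4 to 29.7 CPM in the other groups. Only 1 of 9 was in the BM table. Among 10 enzymes that use or remove superoxide and hydrogen peroxide, 4 rose and 6 fell in Vehicle against WT in BM, and 6 rose and 4 fell in ATM. Sod2, the mitochondrial superoxide dismutase, named after its values were seen, was higher in Vehicle than in WT in BM (2.01 ± 0.042) and in ATM (1.86 ± 0.053). Among 10 transcription factors known to act on the Cybb promoter, 5 rose and 4 fell in BM and 6 rose and 1 fell in ATM in the same comparison. Irf1, which binds interferon response elements, and Spi1, which encodes PU.1, were also picked out after their values were seen. Both were highest in Vehicle among the ATM groups, Irf1 at a mean of 1008 CPM and Spi1 at 313 CPM, the group in which Cybb was lowest. Neutrophil markers were also highest in that group, and whether either factor had a part in the Cybb level was not tested.

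Markers of the cell types that carry the oxidase also differed between the groups. The sum of 9 mature neutrophil markers in ATM was 19400 to 20690 CPM in Vehicle and 10210 to 10440 CPM in Combo, but 469 to 484 CPM in WT, 242 to 255 CPM with the agonist and 395 to 418 CPM with the antibody. Cyba, Ncf1 and Ncf4 were higher than in WT in both ATM groups in which neutrophil markers were high. They were also above all WT libraries with the antibody (762 to 826, 103 to 138 and 70.7 to 78.6 CPM). The same held with the agonist (531 to 562, 63.4 to 69.4 and 37.6 to 38.9 CPM). With either agent alone the neutrophil sum was below the WT range. Cybb was at 490 to 760 CPM in the agonist and antibody libraries. It was at 630 to 662 CPM in Combo, where neutrophil markers were high. Immature granulocyte markers (6 genes) were at 384 to 403 CPM in Combo and at 5.13 to 29.9 CPM in the other ATM groups. The part of these cells in the member changes was not tested, and in bulk samples fewer cells of a type and less RNA per cell cannot be told apart.

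The label of the ATM libraries, macrophages sorted on the surface antigen that Adgre1 encodes, was checked against 10 monocyte and macrophage markers, whose sum was 1603 to 1692 CPM in WT, 2284 to 2443 CPM in Vehicle, 3460 to 3537 CPM with the agonist, 4660 to 4728 CPM with the antibody and 3601 to 3707 CPM in Combo. None was at 0 in all libraries of a group. Adgre1 itself averaged 42.3 CPM in Vehicle against 208 CPM in WT and 875 CPM with the antibody, and Csf1r averaged 47.6 CPM in Vehicle against 547 CPM in WT. Of the 10 markers, 5 passed as higher and 5 as lower in Vehicle than in WT (4 and 3 called), so the list as a whole did not set Vehicle below WT, and Adgre1 and Csf1r were picked out after their values were seen. Vehicle, the ATM group with the lowest Adgre1 and Csf1r, was also the lowest for Cybb, and their part in its change was not tested. ATM libraries also held stromal and endothelial markers (6782 to 23230 CPM), and erythroid (1210 to 6830 CPM), adipocyte (282 to 795 CPM), B cell (111 to 410 CPM) and T cell (107 to 943 CPM) markers. Pancreatic acinar markers were at 1069 to 1086 CPM in Combo and at most 27.6 CPM elsewhere, and epididymis markers were at 2986 to 3135 CPM in WT and at most 175 CPM elsewhere.

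**Figure D4:**
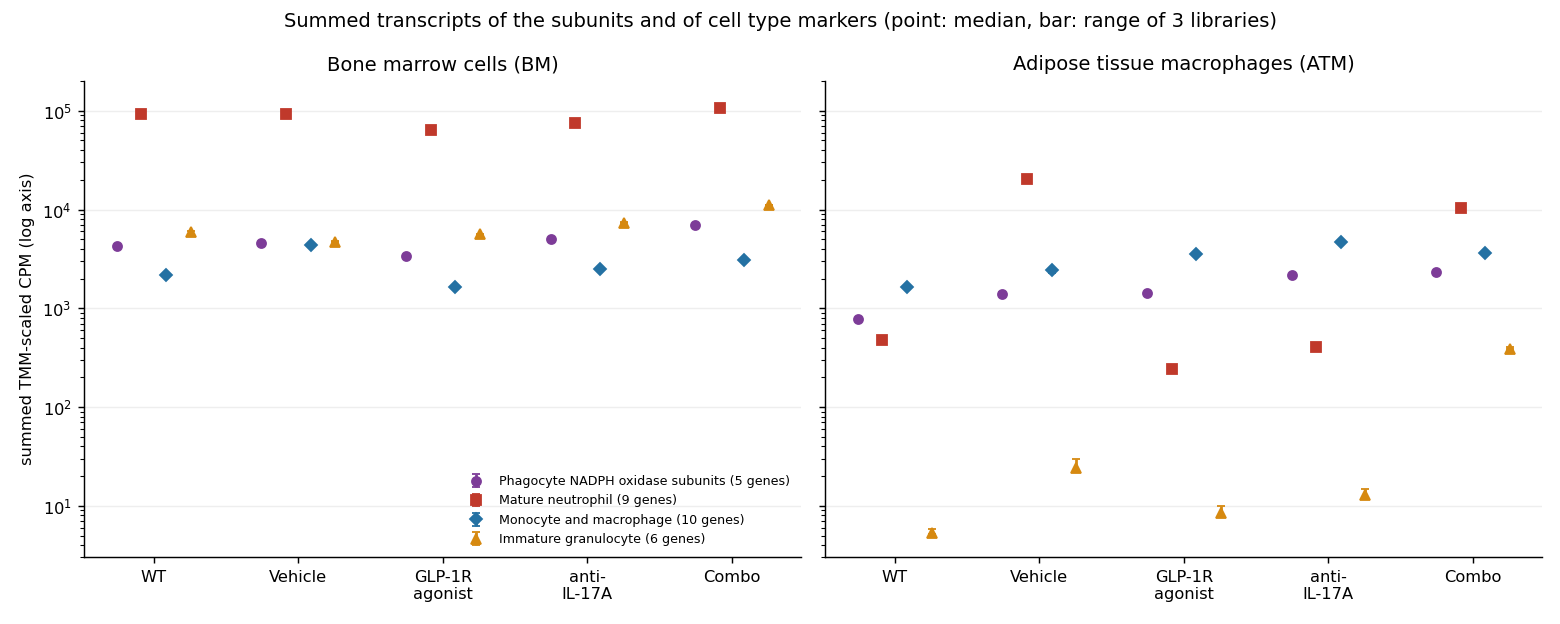
Summed TMM-scaled CPM on a log axis for the 5 subunits and for 3 marker lists, with points at the median and bars over the range of the 3 libraries of each group. Across BM groups the mature neutrophil sum stays between 64180 and 107100 CPM, whereas in ATM it lies between 242 and 484 CPM in 3 groups and between 10210 and 20690 CPM in Vehicle and Combo.

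In BM the mature neutrophil sum was 90020 to 98930 CPM in WT, 92120 to 94780 CPM in Vehicle, 64180 to 64860 CPM with the agonist, 75160 to 76390 CPM with the antibody and 104900 to 107100 CPM in Combo. S100a8 and S100a9 made up most of this sum, and the 9 markers taken singly moved in both directions. In Vehicle against WT 7 fell and 1 rose (median -0.44, 2 called lower), and in Combo against Vehicle 6 rose, all called, and 2 fell (median 1.26). The immature granulocyte sum was 10990 to 11150 CPM in Combo and 4638 to 7498 CPM in the other groups. The monocyte and macrophage sum was highest in Vehicle (4245 to 4417 CPM) and lowest with the agonist (1624 to 1654 CPM), as was Cyba. The 10 markers taken singly gave another order. Their median change against Vehicle was -0.74 with the agonist, -0.89 with the antibody and -1.06 in Combo. In Vehicle against WT, 6 of them rose and 3 fell (median 0.87). The part of these cell types in the BM member changes was not tested.

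Cybb is X-linked, and the libraries differed in sex-linked transcripts although the labels describe groups matched for sex. Xist, the transcript of the inactive X chromosome, had 5284 to 6250 counts in the BM Vehicle libraries and 3382 to 3555 in BM Combo, but 87 to 125 with the antibody and 0 to 6 in WT and with the agonist. In ATM it had 747 to 1024 counts in Vehicle and 1098 to 1400 in Combo, and 0 to 53 in the other 3 groups. The Vehicle and Combo libraries thus held Xist transcripts that the other groups held few of or none, and the part of sex in the member changes was not tested. Vehicle and Combo were not alike either, since in BM all 5 sex-linked genes were lower in Combo than in Vehicle, and the Y-linked Ddx3y had 579 to 655 counts in Vehicle and 143 to 170 in Combo, against 1437 to 2191 in the other BM groups.

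The 4 main drug and obesity contrasts were also compared between the tissues, in a fit over all 30 libraries and the 13076 genes in both tables. Of 20 member differences, 17 passed the FDR, where 56%, 53.4%, 56.4% and 55.1% of all genes passed for Vehicle against WT, agonist, antibody and Combo against Vehicle. Cybb with the agonist rose in ATM but not in BM, where it was lower than Vehicle with TMM scaling and not with total-count scaling (difference 1.56 ± 0.05, FDR = 1.04e-19). The tissue differences of Ncf4 and Rac2 with the antibody and of Ncf4 in Combo did not pass. With DESeq2 size factors 19 of 20 passed, including Ncf4 with the antibody (-0.32, FDR = 0.0187) and Ncf4 in Combo (-0.28, FDR = 0.0379).

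The members were also set beside all genes with a mean of at least 10 CPM, by Pearson correlation of log2 CPM over the 15 libraries of a tissue, as a description that rests on 5 group means. In BM, Cybb, Ncf1, Ncf4 and Rac2 ran together (r from 0.786 to 0.956), while Cyba had r = 0.132 with Cybb, 0.00271 with Rac2, 0.333 with Ncf1 and 0.599 with Ncf4. In ATM the closest gene to Ncf1 was Ncf4, and the closest to Ncf4 was Ncf1 (r = 0.985), followed for both by Alox5ap, the 5-lipoxygenase activating protein. Cybb had r of 0.22 with Ncf1, 0.276 with Ncf4, 0.554 with Cyba and 0.62 with Rac2 in ATM. The closest genes to Cybb there were Lpl (r = 0.989) and S100a4 (0.988). The closest genes to Rac2 were Dock8 (0.996) and Itgb2 (0.995) in BM and Coro1a (0.991) and Bin2 (0.981) in ATM. Cyba was closest to Dnpep (0.991) and Srrt (0.987) in BM and to Anxa1 (0.994) and Arpc1b (0.991) in ATM. In BM, Cybb was closest to Nrd1 (0.995) and Copg2 (0.995), Ncf1 to Rac1 (0.995) and Flot1 (0.995), and Ncf4 to Hcls1 (0.996) and Glrx (0.993).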

How the data were processed

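RNA was taken from whole bone marrow cells and from macrophages sorted from visceral adipose tissue, in 5 groups of 3 libraries each, as polyA RNA sequenced in read pairs without strand. The authors aligned reads to mm10 (GRCm38) with STAR 2.7.2a and deposited raw counts per gene made with featureCounts 2.0.1 on GENCODE M22 (mapping quality of at least 10, reads counted for every overlapping gene), with genes of low counts left out. The smallest gene totals in the deposited counts were 55 in BM and 54 in ATM.

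The counts were tested in each tissue with all 15 libraries in 1 fit of edgeR 4.0.16 (R 4.3.3, TMM scaling, robust quasi-likelihood test, Benjamini-Hochberg adjustment over all genes). The low-count filter of edgeR removed 0 genes. Standard errors are the log2 fold change divided by the root of F. The study itself used DESeq2, which was run here as an alternative (version 1.42.0). The members and lists were chosen with earlier results of these data known. By rule, named genes were all members, Rac1, up to 4 regulators with the largest called change per comparison, and the 2 genes most alike each member by correlation. Outside this rule, Sod2, Irf1, Spi1, Adgre1 and Csf1r were named after their values were seen. S100a8, S100a9, Xist and Ddx3y of the marker lists were also named outside it. 1 gene of the lists is not reported here. TPM used exon lengths of GENCODE M21, matched for 96.3% of BM genes and 96.2% of ATM genes by symbol. The tissue difference was tested in 1 fit over all 30 libraries.

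Tested on simulated data for Vehicle against WT, edgeR called 200 of 200 changed genes and 0 others in BM (13353 genes), and 142 of 200 with 3 others in ATM (17059 genes). Libraries of a group differed by more than sampling noise (chi-square over degrees of freedom of at least 2.02), so none was counted as a resequenced copy of another. Separate preparations from the same mouse or the same pooled RNA could also differ by more than sampling noise. The check therefore cannot show that the libraries of a group came from separate mice. Alternatives were DESeq2, DESeq2 size factors, no filter or at least 10 counts in every library, a replicate block, only the groups compared, each library left out in turn and, added after the data were seen, total counts in place of TMM factors.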

Additional observations from a re-analysis of the deposited data

Results flagged for a closer look

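The same contrast had a different effect in BM and in ATM for 17 of 20 member tests (19 with DESeq2 size factors). Of all 13076 genes in both tissues, 53.4% to 56.4% passed the same tests, and the contrasts share their Vehicle libraries. The tissue difference was not run with total counts. Each value below is the log2 fold change in ATM minus that in BM, from an edgeR fit over all 30 libraries that shares 1 estimate of the spread although ATM replicates varied more. For the same reason, a value can differ slightly from the difference of the separate fits. For Vehicle against WT the difference was -0.21 for Cybb, 0.91 for Cyba, 1.59 for Ncf1, 1.61 for Ncf4 and 0.63 for Rac2. Cybb thus fell further in ATM than in BM, while Cyba, Ncf1 and Ncf4 rose further. The small Cybb difference is to be read beside the medians of all genes in the separate fits. For this contrast they were -0.21 in ATM and -0.02 in BM. For the GLP-1R agonist against Vehicle it was 1.56 for Cybb, 0.94 for Cyba, -0.69 for Ncf1, -0.53 for Ncf4 and -0.24 for Rac2. Cybb rose in ATM and did not rise in BM with TMM scaling, where its small fall did not hold with total counts in place of TMM factors. For the anti-IL-17A antibody against Vehicle it was 1.43 for Cybb, 1.33 for Cyba and -0.72 for Ncf1. Cyba fell in BM and rose in ATM. Ncf1 rose in BM and was lower in ATM, where its change did not pass with total counts (-0.10, FDR = 0.424). For Combo against Vehicle it was 0.91 for Cybb, 0.58 for Cyba, -0.66 for Ncf1 and 0.39 for Rac2. The tissues differed in cell types, and the part of these in the differences was not tested.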

How the results depend on the processing

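Of the counts of members past a limit, 348 values under the alternatives stayed within 1.5 times the main count and 5 did not, all 5 with total counts in place of TMM factors. With that scaling, 0 members were called in BM for the agonist against Vehicle and 0 for Combo against WT, and in ATM 3 members passed the FDR for the agonist, 3 for the antibody and 5 for Combo against Vehicle. Of the members' log2 fold changes under the alternatives, 1071 kept their sign and side of the threshold, 13 came to pass it, 10 no longer passed and 6 changed sign. Those 6, again with total counts, were in BM Cybb (0.0157) and Rac2 (0.19) for the agonist, Ncf4 for the antibody (0.0639) and Cyba for Combo against WT (-0.10), and in ATM Cyba for the agonist (0.0448) and Ncf4 for the antibody (0.0272). With total counts the ATM changes of Rac2 for the agonist and Ncf1 for the antibody also no longer passed. DESeq2 and DESeq2 size factors changed no sign and no side of the threshold of a member within a tissue. Between tissues, DESeq2 size factors brought the Ncf4 differences for the antibody and for Combo past the threshold (19 of 20 against 17 of 20). Within a tissue, libraries with the same replicate number did not deviate together (correlations of at most 0.052), so the numbers do not pair them there. A replicate block moved only Rac2 in BM Vehicle against WT past the threshold (-0.06, FDR = 0.0365). Whether BM and ATM libraries of the same number came from the same mouse was not checked. The main fit over both tissues took them as independent. Rac2 in the agonist against Vehicle in BM passed when only those groups were fitted (-0.05, FDR = 0.00709), and Rac2 in Vehicle against WT when genes needed 10 counts in every library (-0.07, FDR = 0.0304). Ncf4 for the antibody in ATM did not pass with only the groups compared (-0.30, FDR = 0.0705). The cause of these was not tested. Depth did not limit the members, the lowest of which had 620 counts in a library.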
